A study of Mus musculus with 6 samples.

Results

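The genes described here are 31 genes of cholesterol handling, measured in mouse eosinophils that were left untreated or given IL-4 or IL-33. They were chosen by name, as genes known to act in cholesterol synthesis, in its control, and in the uptake, storage and efflux of cholesterol, from 22548 gene symbols in the deposited tables. By role, 8 act in the mevalonate steps and 9 between squalene and cholesterol, 5 control SREBP, 4 move or store cholesterol inside the cell, and 5 belong to the LXR and efflux side. Hmgcs1, the cytosolic HMG-CoA synthase, was listed at an FPKM of 0 in all 6 libraries and was compared nowhere. Its entries sit on the unplaced chr13_random sequence of mm9, and a listed 0 can be a failed estimate. The other 30 genes had an FPKM (reads scaled by transcript length and library size) of at least 1 in all 6 libraries.

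The donors were BALB/c mice of wild-type genotype, aged 4 to 8 weeks, whose low-density marrow cells were grown into eosinophils. All 6 cultures had stem cell factor and FLT3 ligand, each at 100 ng/ml, until day 4, and then IL-5 (10 ng/ml) until day 14. The groups were untreated cells, cells with IL-4 at 10 ng/ml and cells with IL-33 at 10 ng/ml, each at 1 h and at 4 h, with 1 library for each of the 6 groups. The labels do not say how many animals or cultures stood behind a library. Since each group is a single library, the spread between cultures is unknown and p-values are not given. In RNA from a whole culture, fewer cells of a type and less RNA per cell cannot be told apart.

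Cholesterol is built from acetyl-CoA, through mevalonate and the isoprenoid units that also serve other products, to squalene and then through sterol intermediates. The transcription factors SREBP1 and SREBP2 (Srebf1, Srebf2) switch on the enzymes when sterol in the endoplasmic reticulum is low, because SCAP then escorts them to the Golgi for cleavage, while INSIG proteins hold them back. When sterol is plentiful, oxysterols activate the LXR receptors (Nr1h2, Nr1h3), whose known targets include the efflux transporters Abca1 and Abcg1 and the ubiquitin ligase gene Mylip. IL-4 signals mainly through STAT6, and IL-33 through its receptor ST2 to NF-kB.

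The stretches upstream of Idi1, Hsd17b7, Insig1 and Abca1 are shown because these genes carry the largest differences with IL-33 described below. Each run is the 250 bases before the annotated start, from RefSeq on build GRCm38.p6, in the direction of transcription. They lie at chr13:8885356-8885605 (plus strand) for Idi1, chr1:169969206-169969455 (minus strand) for Hsd17b7, chr5:28071162-28071411 (plus strand) for Insig1 and chr4:53159896-53160145 (minus strand) for Abca1. In the first 3, capitals mark the CCAAT box, the letters bound by the factor NF-Y, which is known to act beside SREBP. It is read there on the opposite strand. In Abca1 they mark a loose direct repeat of the kind that LXR binds, also on the opposite strand.
Idi1: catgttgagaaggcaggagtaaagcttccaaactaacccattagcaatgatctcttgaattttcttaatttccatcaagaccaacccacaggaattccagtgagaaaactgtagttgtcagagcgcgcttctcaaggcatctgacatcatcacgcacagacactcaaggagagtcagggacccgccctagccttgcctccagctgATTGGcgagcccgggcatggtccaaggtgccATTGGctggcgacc
Hsd17b7: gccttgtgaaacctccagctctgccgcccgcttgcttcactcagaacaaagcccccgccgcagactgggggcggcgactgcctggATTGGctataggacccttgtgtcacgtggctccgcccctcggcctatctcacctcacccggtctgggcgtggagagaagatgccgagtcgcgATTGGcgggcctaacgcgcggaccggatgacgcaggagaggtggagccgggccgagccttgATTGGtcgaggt
Insig1: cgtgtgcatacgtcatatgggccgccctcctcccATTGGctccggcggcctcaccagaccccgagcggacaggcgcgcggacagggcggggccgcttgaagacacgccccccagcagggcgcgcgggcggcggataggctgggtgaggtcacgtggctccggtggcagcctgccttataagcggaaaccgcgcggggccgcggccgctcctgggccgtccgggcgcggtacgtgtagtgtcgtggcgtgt
Abca1: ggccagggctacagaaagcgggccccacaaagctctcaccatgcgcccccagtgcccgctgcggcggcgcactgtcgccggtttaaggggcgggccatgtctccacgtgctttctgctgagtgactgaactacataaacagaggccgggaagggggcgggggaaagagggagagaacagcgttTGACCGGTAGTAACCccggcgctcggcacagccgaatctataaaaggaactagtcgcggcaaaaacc

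Motifs were searched on both strands in windows from 250 bases before to 50 bases after each start, which were found for 25 of the 31 genes. A gene was counted if any of its windows held the motif, since some genes have several starts. The CCAAT box was in 12 of the 14 synthesis genes with a window (85.7%) and in 41% of all 26994 genes with one. Counted by window, it was in 12 of 17 (70.6%) and in 37.4% of 32817. The GC box GGGCGG, a site for SP1, was in 12 of the same 14 genes (85.7%), against 38.2% of all genes, and in 13 of 17 windows (76.5%), against 35.6% of all windows. The letters TCACNCCAC, a form of the sterol regulatory element, were in 1 of the 14, Hmgcs1, where TCACCCCAC begins 137 bases before the start, and in 1.44% of all genes. The strict LXR repeat, GGTCA and AGGTCA with 4 bases between them, was in none of the 25 genes and in 0.0222% of all genes. Its looser form, GGTNA and GGTNA with 5 bases between them, was in Abca1, as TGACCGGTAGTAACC beginning 67 bases before the start, and in Srebf1, against 0.819% of all genes. In the 4 runs shown the matches do not overlap each other, and a match is not evidence of binding in these cells.

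Eosinophil markers were abundant in every library: all 8 on the list were above 1 FPKM and together gave 60956 to 71619 FPKM. Prg2, the granule major basic protein, stood at 44165 to 52228 FPKM. Markers of other cells were lower but present, with sums of 1486.7 to 2524.6 FPKM for 10 monocyte and macrophage markers, 6046.6 to 7952.7 for 7 neutrophil markers and 169.56 to 229.83 for 7 mast cell and basophil markers, of which Cma1 and Tpsb2 were under 1. Depth was estimated from the steps of the lowest values, at 15500000 reads for untreated 4 h and 19200000 to 30810000 for the others, on the scale of each library's own table. The 30 genes had an estimated 42 to 20595 reads per library. Intervals below are 95% exact binomial (Clopper-Pearson) intervals of a fold from these estimated reads. They cover counting error only, not the spread between cultures. In genes with several transcripts, the fold of reads behind an interval can differ from the FPKM fold printed beside it, since each transcript's length enters.

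The synthesis genes differed most between 1 h and 4 h, and IL-33 added to the difference at 4 h. Values are given below for untreated, IL-4 and IL-33 cells, in that order, first at 1 h and then at 4 h. A log2 change is of FPKM + 1, and a gene is called higher or lower at an absolute log2 change of at least 1 (the 2-fold rule) or, more loosely, 0.585 (the 1.5-fold rule). In untreated cells at 4 h against 1 h, 12 of 16 synthesis genes were higher by the 1.5-fold rule and 5 by the 2-fold rule, and none was lower by either. Over all genes the higher calls were made for 5.9% and 0.879%, and lower calls by the 1.5-fold rule for 3.63%. The synthesis genes' median log2 change was 0.75, beside 0.10 for all 10813 genes compared, and all 16 were above 0. In 15 of 16, Tm7sf2 being the exception, each library of 4 h was above each library of 1 h, which held for 30.6% of 11183 genes. The synthesis genes together held 0.0549%, 0.0551% and 0.0581% of the total FPKM at 1 h and 0.0966%, 0.0968% and 0.125% at 4 h. The time without cytokine, the day's handling and the library cannot be told apart in this comparison.

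**Figure D1:**
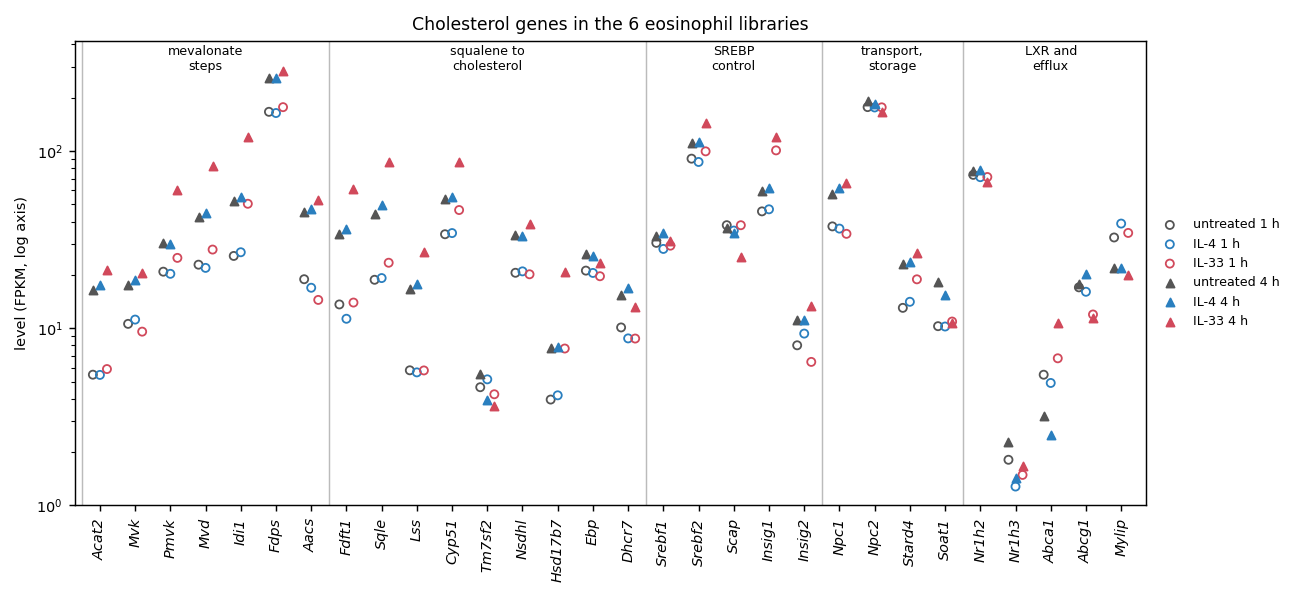
Level of each of the 30 measured cholesterol genes (FPKM, log axis) in the 6 libraries, grouped by role, with circles for 1 h, triangles for 4 h and one colour per treatment. In most synthesis genes the triangles lie above the circles, and the IL-33 triangle is the highest point in 13 of 16.

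With IL-33 at 4 h against untreated 4 h, 8 of the 16 synthesis genes were higher by the 1.5-fold rule and 2 by the 2-fold rule, beside 8.04% and 4.15% of all genes. None was lower by the 1.5-fold rule, as 7.31% of all genes were. Without the 1 FPKM added to each value, Tm7sf2 had a fold of 0.6548, beyond 1.5-fold lower. The median log2 change of the 16 was 0.52, and that of all 10803 genes was -0.03. The IL-33 library of 4 h was the highest of the 6 in 13 of 16 synthesis genes, as in 27.2% of all genes. Cell markers differed in the same comparison: all 7 neutrophil markers had log2 changes below 0 (median -0.37), as had 7 of 8 eosinophil markers (median -0.12), with Il5ra, the IL-5 receptor chain, at -0.89 and Epx, the eosinophil peroxidase, at -0.53. Of 10 monocyte and macrophage markers 4 were higher by the 1.5-fold rule, as given beside Abca1. Their part in the synthesis genes' values was not tested. At 1 h, IL-33 left 14 of the 16 within 1.5-fold, with a median log2 change of 0.06, while Idi1 and Hsd17b7 were higher by the 1.5-fold rule, beside 4.75% of all genes, and none was lower, beside 2.77%. With IL-4 no synthesis gene was past either rule at either time.

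In the mevalonate steps, Idi1, which turns isopentenyl diphosphate into its isomer, differed most with IL-33. It lies on chromosome 13 of mm9 at 8884851 to 8891642. Its levels were 25.6, 26.9 and 50.5 FPKM at 1 h and 52.0, 55.0 and 120.0 FPKM at 4 h. The IL-33 library was the highest at both times, and the IL-33 library of 1 h lay just under the untreated library of 4 h. The fold with IL-33 was 1.97 at 1 h (interval 1.855 to 2.094, log2 change 0.95) and 2.306 at 4 h (2.203 to 2.414, log2 change 1.19). Set against the untreated library of 4 h, the log2 change of IL-33 at 1 h turned to -0.05.

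Mvd and Pmvk act just before Idi1, as the decarboxylase of mevalonate diphosphate and the kinase of mevalonate phosphate. Mvd stood at 22.9, 21.9 and 27.8 FPKM at 1 h and at 42.4, 44.8 and 82.8 at 4 h. Pmvk stood at 20.9, 20.3 and 25.0 FPKM at 1 h and at 30.1, 29.7 and 60.0 at 4 h. Both had 1 library far above the rest, IL-33 at 4 h, where the fold over untreated cells was 1.954 for Mvd (interval 1.818 to 2.089) and 1.993 for Pmvk (1.793 to 2.207). With log2 changes of 0.95 and 0.97 they fell just short of the 2-fold rule. By the highest transcript alone the log2 changes were 1.04 for Mvd, past that rule, and 0.86 for Pmvk. Both genes were summed over their transcripts. For Pmvk, NM_026784 held most, at 16.3 FPKM in untreated cells of 1 h, 29.1 in those of 4 h and 53.8 with IL-33 at 4 h.

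Acat2 and Aacs feed the start of the pathway, Acat2 as the cytosolic thiolase that joins 2 acetyl-CoA units and Aacs as the enzyme that activates acetoacetate. Acat2, on chromosome 17 at 13135907 to 13153591, stood at 5.47, 5.45 and 5.89 FPKM at 1 h and at 16.4, 17.6 and 21.4 at 4 h. The 4 h and 1 h libraries did not overlap, and the fold between the untreated ones was 2.995 (interval 2.563 to 3.509). Aacs stood at 18.9, 16.9 and 14.5 FPKM at 1 h and at 45.6, 47.2 and 53.0 at 4 h. Its untreated fold over time was 2.408 (2.243 to 2.586), while its change with IL-33 at 4 h was small, at a log2 of 0.21. These genes differed mainly by time.

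Mvk, the mevalonate kinase, and Fdps, which makes farnesyl diphosphate, showed the same order. Mvk stood at 10.6, 11.2 and 9.57 FPKM at 1 h and at 17.6, 18.7 and 20.6 at 4 h. Fdps, the synthesis gene with the highest level, stood at 167, 164 and 177 FPKM at 1 h and at 258, 258 and 285 at 4 h. All libraries of 4 h were above those of 1 h in both genes, and the log2 changes with IL-33 at 4 h were 0.22 and 0.14. Their untreated changes over time, 0.68 and 0.63, fell to 0.58 and 0.53, under the 1.5-fold rule, once the median of all genes was set to 0.

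From squalene on, Hsd17b7, a ketosteroid reductase that acts while methyl groups are removed from the sterol, had the largest fold with IL-33 at 4 h among the synthesis genes. It lies on chromosome 1 at 171879667 to 171899336. Levels were 3.96, 4.18 and 7.69 FPKM at 1 h and 7.74, 7.84 and 20.9 at 4 h. As with Idi1, the IL-33 library of 1 h stood at the level of untreated cells of 4 h, and the IL-33 library of 4 h stood apart. The fold with IL-33 was 1.941 at 1 h (interval 1.714 to 2.201) and 2.698 at 4 h (2.457 to 2.967), with log2 changes of 0.80 and 1.32. Against the untreated library of 4 h, the log2 change of IL-33 at 1 h turned to -0.01. From untreated cells at 1 h to IL-33 at 4 h the fold was 5.277.

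Fdft1, which joins farnesyl units into squalene, Sqle, which oxidises squalene, and Lss, which closes the ring to lanosterol, act in turn. Fdft1 stood at 13.6, 11.3 and 14.0 FPKM at 1 h and at 34.1, 36.5 and 60.8 at 4 h. Sqle, on chromosome 15 at 59146646 to 59162748, stood at 18.8, 19.2 and 23.4 FPKM at 1 h and at 44.3, 49.6 and 86.4 at 4 h. Lss, on chromosome 10 at 75994371 to 76016679, stood at 5.79, 5.64 and 5.78 FPKM at 1 h and at 16.6, 17.8 and 26.9 at 4 h. In each, IL-33 stood above both other libraries at 4 h. At 1 h the cytokine libraries were within 1.5-fold of the untreated one. The widest of these differences were Fdft1 with IL-4, at a fold of 0.8301 (interval 0.7556 to 0.9117), and Sqle with IL-33, at 1.248 (1.151 to 1.354).

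The untreated folds over time were 2.5 for Fdft1 (interval 2.313 to 2.702), 2.359 for Sqle (2.182 to 2.552) and 2.864 for Lss (2.583 to 3.177). The folds with IL-33 at 4 h were 1.783 (1.692 to 1.879), 1.949 (1.849 to 2.056) and 1.622 (1.517 to 1.735). Both steps together gave folds of 4.457, 4.599 and 4.645 from untreated cells at 1 h to IL-33 at 4 h. Fdft1 overlaps the cathepsin gene Ctsb in the tables' loci, and reads from overlapping genes cannot be told apart without strand.

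Cyp51, the lanosterol demethylase, stood at 34.0, 34.5 and 46.5 FPKM at 1 h and at 53.7, 55.3 and 86.5 at 4 h. It was higher with IL-33 at both times, with folds of 1.37 (interval 1.305 to 1.439) and 1.611 (1.546 to 1.678), of which the second passed the 1.5-fold rule. Nsdhl, a sterol dehydrogenase of the same demethylation stage, stood at 20.6, 21.0 and 20.2 FPKM at 1 h and at 33.8, 33.1 and 39.0 at 4 h. It differed by time, with an untreated fold of 1.645 (1.5 to 1.803), and its log2 change with IL-33 at 4 h was 0.20.

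The last 3 synthesis genes, Tm7sf2, Ebp and Dhcr7, were past neither rule in any comparison. They encode a sterol reductase, a sterol isomerase and the enzyme of the last reduction to cholesterol. Their log2 changes with IL-33 at 4 h were -0.49, -0.17 and -0.20, below 0 where the other 13 were above 0. Tm7sf2 had its lowest level of the 6 libraries there, at 3.62 FPKM against 5.54 in untreated cells of 4 h. Without the 1 FPKM added to each value, that is a fold of 0.6548 (interval 0.5049 to 0.8509), beyond 1.5-fold lower. The absence of a call for Tm7sf2 thus rests on that addition. Tm7sf2 was nearly as low with IL-4 at 4 h, at 3.93 FPKM (log2 change -0.41). The Tm7sf2 locus overlaps that of another gene, 1110014N23Rik.

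**Figure D2:**
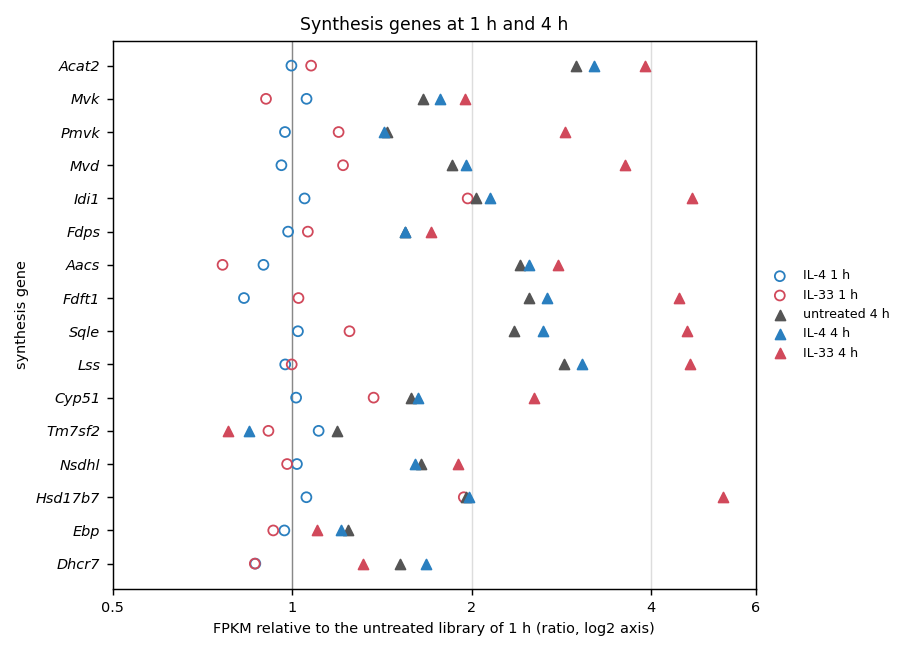
FPKM of each of the 16 synthesis genes relative to the untreated library of 1 h (log2 axis), with circles for 1 h and triangles for 4 h, 1 library per point. Most circles lie near 1, the grey and blue triangles lie close to each other in all but Tm7sf2, with an untreated range of 1.191 to 2.995, and the red IL-33 triangle lies furthest right in 13 genes, up to 5.277 for Hsd17b7.

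Among the genes that control SREBP, Insig1 was higher with IL-33 at both times and the other 4 were past neither rule. Insig1, which encodes a protein that retains SCAP in the endoplasmic reticulum and is itself a known SREBP target, lies on chromosome 5 at 28397951 to 28405202. Its levels were 45.7, 47.0 and 101 FPKM at 1 h and 59.8, 61.7 and 120.2 at 4 h. Both IL-33 libraries lay far above the other 4. The fold was 2.21 at 1 h (interval 2.108 to 2.318, log2 change 1.13) and 2.01 at 4 h (1.92 to 2.105, log2 change 0.99). It was the only one of the 30 genes past the 2-fold rule at 1 h with IL-33, beside 2.36% of all genes higher. At 4 h it lay just outside the rule, since the 1 FPKM added to each value lowers the ratio.

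Srebf2, the factor that chiefly drives cholesterol synthesis, stood at 90.7, 86.9 and 99.7 FPKM at 1 h and at 112, 113 and 145 at 4 h. Its fold with IL-33 at 4 h was 1.296 (interval 1.264 to 1.33), under both rules. Srebf1, whose products act more on fatty acid genes, ranged from 28.0 to 34.4 FPKM, with log2 changes between -0.11 and 0.13. Scap was lower with IL-33 at 4 h, at 25.3 FPKM against 34.6 to 38.2 in the other 5 libraries. That is a fold of 0.6851 (0.6486 to 0.7236) and a log2 change of -0.53, also under both rules. Insig2, the other INSIG gene, ranged from 6.46 FPKM with IL-33 at 1 h to 13.3 with IL-33 at 4 h. Srebf1 shares its locus in the tables with Rai1, and Srebf2 holds the microRNA gene Mir33.

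Of the 4 genes that move or store cholesterol, Soat1 was lower by the 1.5-fold rule with IL-33 at 4 h, beside 7.31% of all genes. In untreated cells Npc1, Stard4 and Soat1 were higher at 4 h than at 1 h by that rule, beside 5.9% of all genes. Soat1, the enzyme that makes cholesteryl esters for storage, lies on chromosome 1 at 158358238 to 158404459. It stood at 10.3, 10.2 and 10.9 FPKM at 1 h and at 18.2, 15.5 and 10.8 at 4 h. The IL-33 library of 4 h thus lay at the level of the 3 libraries of 1 h. Its fold against untreated 4 h was 0.5907 (interval 0.5582 to 0.6252), a log2 change of -0.71. Against the untreated library of 1 h the log2 change was 0.06.

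Stard4, which carries sterol between membranes, stood at 13.0, 14.1 and 18.9 FPKM at 1 h and at 23.2, 23.6 and 26.5 at 4 h. Its fold with IL-33 was 1.449 at 1 h (interval 1.354 to 1.552) and 1.141 at 4 h (1.078 to 1.208), and that of untreated cells over time was 1.78 (1.657 to 1.912). Npc1, the membrane protein that lets cholesterol leave the lysosome, stood at 37.6, 36.5 and 34.1 FPKM at 1 h and at 57.6, 61.5 and 66.1 at 4 h. It differed by time, with 4 h above 1 h in every pairing of libraries, as in 30.6% of all genes. Its untreated log2 change of 0.60 fell to 0.50 with the median of all genes set to 0. The Npc1 locus overlaps that of another gene, 3110002H16Rik. Npc2, the soluble lysosomal partner of Npc1, kept to 167 to 191 FPKM and was past neither rule.

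On the LXR and efflux side, Abca1 and Abcg1 differed in opposite directions with IL-33 at 4 h. Abca1, the transporter that loads cholesterol onto apolipoprotein A-I, lies on chromosome 4 at 53043660 to 53172767. It stood at 5.47, 4.91 and 6.77 FPKM at 1 h and at 3.22, 2.50 and 10.7 at 4 h. The IL-33 library of 4 h was the highest of the 6, and the other libraries of 4 h were the lowest. The fold with IL-33 at 4 h was 3.343 (interval 3.041 to 3.68, log2 change 1.47), the largest of the 30 genes, and at 1 h the log2 change was 0.26. In untreated cells the fold from 1 h to 4 h was 0.5881 (0.5285 to 0.6536), a log2 change of -0.62. It was the 1 lower call among the 30 genes there, a share near the 3.63% of all genes.

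Abca1 is also expressed in macrophages, and macrophage markers differed in the same library. With IL-33 at 4 h, the 10 monocyte and macrophage markers summed to 2255 FPKM, against 1494.2 in untreated cells of 4 h and 2402.5 in those of 1 h. The largest single part of each sum was Ly6c2, a monocyte surface gene, at 1116, 908 and 1700.2 FPKM in the same libraries. By the 2-fold rule 3 of the 10 were higher, beside 4.15% of all genes, namely Csf1r (97.8 to 229 FPKM), Mrc1 (5.12 to 11.4) and Cd14 (47.0 to 218), and by the 1.5-fold rule Emr1 too (291 to 552), while Ccr2 was lower. C1qa stood at 19.9 and 15.5 FPKM, C1qb at 24.6 and 22.5, Cd68 at 86.8 and 82.0 and Cx3cr1 at 1.59 and 0.807. Marker differences were not confined to this library. With IL-4 at 4 h, where Abca1 was lowest, Mrc1 was higher (15.1 FPKM) and Cx3cr1 lower (0.302), and the other 8 were within 1.5-fold. Cd14 was also higher with IL-33 at 1 h, at 188 FPKM against 91.6 in untreated cells, and the other 8 compared there were within 1.5-fold. The part of these markers in the result for Abca1 was not tested.

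Abcg1, which passes cholesterol to high-density lipoprotein, lies on chromosome 17 at 31194638 to 31254926. It stood at 17.0, 16.1 and 12.0 FPKM at 1 h and at 17.8, 20.3 and 11.4 at 4 h. Both IL-33 libraries were below the other 4. The fold with IL-33 was 0.7029 at 1 h (interval 0.658 to 0.7506) and 0.6385 at 4 h (0.5966 to 0.6835). The log2 change at 4 h, -0.60, passed the 1.5-fold rule, and it was -0.57, under the rule, with the median of all genes set to 0. Against the untreated library of 1 h it was -0.54.

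Mylip, whose product targets lipoprotein receptors for degradation, stood at 32.6, 39.0 and 34.5 FPKM at 1 h and at 21.8, 22.0 and 20.1 at 4 h. All libraries of 4 h were below those of 1 h, an order whose share over all genes was not computed. The untreated fold was 0.6686 (interval 0.6183 to 0.7225), a log2 change of -0.56 just under the 1.5-fold rule. Of the LXR genes themselves, Nr1h2 (LXR-beta) ranged from 67.1 to 77.9 FPKM and Nr1h3 (LXR-alpha) from 1.28 to 2.29. Neither was past a rule in any comparison, with 1 FPKM added to each value, though the plain fold of Nr1h3 with IL-4 at 4 h was 0.6217. Nr1h3 rested on the fewest reads, with an interval of 0.4924 to 0.9998 for its fold of 0.7251 with IL-33 at 4 h. Its transcripts differed there. The main one stood at 1.43 FPKM in untreated cells of 4 h and at 1.66 with IL-33, and the other at 0.859 and 0.

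**Figure D3:**
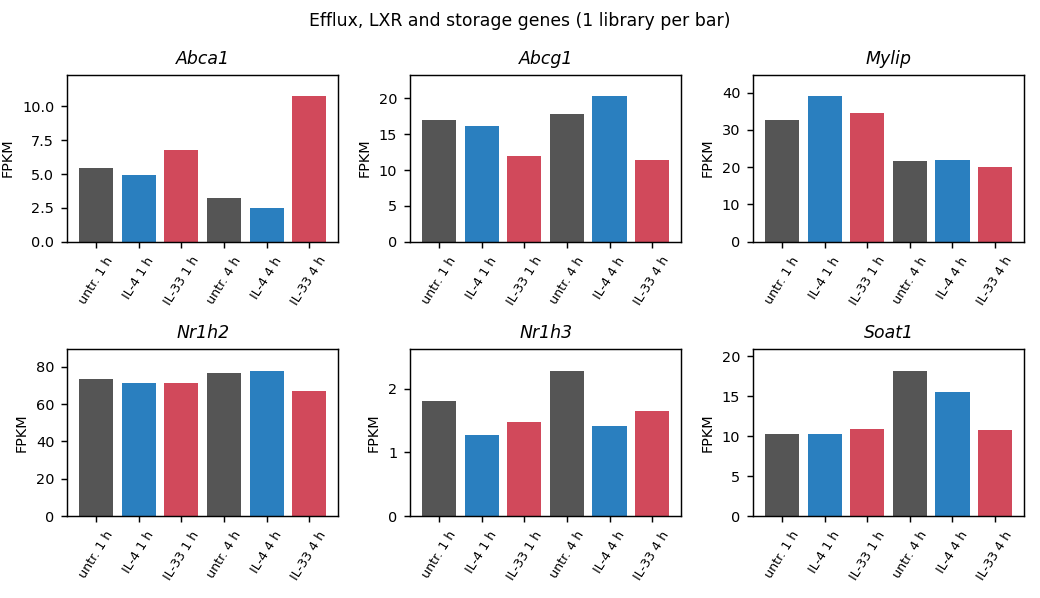
Level (FPKM) of the 5 LXR and efflux genes and of Soat1 in each of the 6 libraries, 1 bar per library, with no error bar because each group has 1 library. Abca1 is highest with IL-33 at 4 h (10.7 FPKM), Abcg1 is lowest there (11.4 FPKM), and Soat1 with IL-33 at 4 h (10.8 FPKM) is at its level of 1 h.

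IL-4 was compared with no cytokine at each time. None of the 30 genes was past the 1.5-fold rule, which 1.43% of all genes passed at 1 h and 2.13% at 4 h, or the 2-fold rule, which 0.828% and 0.997% passed. The log2 changes ran from -0.30 to 0.25 at 1 h and from -0.44 to 0.18 at 4 h, with medians of -0.03 and 0.02, beside -0.02 and 0.02 over all genes. At the ends of these ranges, Nr1h3 was the lowest at both times, at -0.30 and -0.44, and Mylip (0.25) and Abcg1 (0.18) were the highest. Without the 1 FPKM added to each value, the fold of Nr1h3 at 4 h was 0.6217 (interval 0.3963 to 0.9029), beyond 1.5-fold lower. The absence of a call for this low gene thus rests on that addition. Its main transcript stood at 1.43 FPKM in untreated cells of 4 h and at 1.42 with IL-4, and its other transcript at 0.859 and 0. With IL-4, the counting interval of the fold included 1 for 20 of the 30 genes at 1 h and 19 at 4 h. With IL-33 it included 1 for 14 at 1 h and 0 at 4 h. Small differences were enough for this, as for Mylip with IL-33 at 4 h, at a fold of 0.9225 (0.8518 to 0.9995). For Nr1h3 with IL-33 at 4 h the upper end was 0.9998, from a fold of reads that differs from its FPKM fold of 0.7251. The share over all genes was not computed, so these counts are not a result about the 30 genes. The estimated reads differ too, at 20350000 and 19200000 for IL-4 and 25640000 and 30810000 for IL-33, and more reads give narrower intervals. The spread between cultures, which these intervals leave out, was not measured.

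The cytokines were then compared by subtracting the log2 change with IL-4 from that with IL-33, each taken against the untreated library that both share. At 1 h, 3 of the 30 genes were higher with IL-33 by the 1.5-fold rule (4.73% of all genes), with differences of 1.09 for Insig1, 0.88 for Idi1 and 0.74 for Hsd17b7. At 4 h, 9 were higher (6.98% of all genes) and 1, Abcg1, was lower (6.94%). The 2-fold rule left 3 (3.66% of all genes), at 1.74 for Abca1, 1.30 for Hsd17b7 and 1.11 for Idi1. The other higher genes at 4 h were Pmvk (0.99), Insig1 (0.95), Mvd (0.87), Sqle (0.79), Fdft1 (0.72) and Cyp51 (0.64), and the difference for Abcg1 was -0.78.

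**Figure D4:**
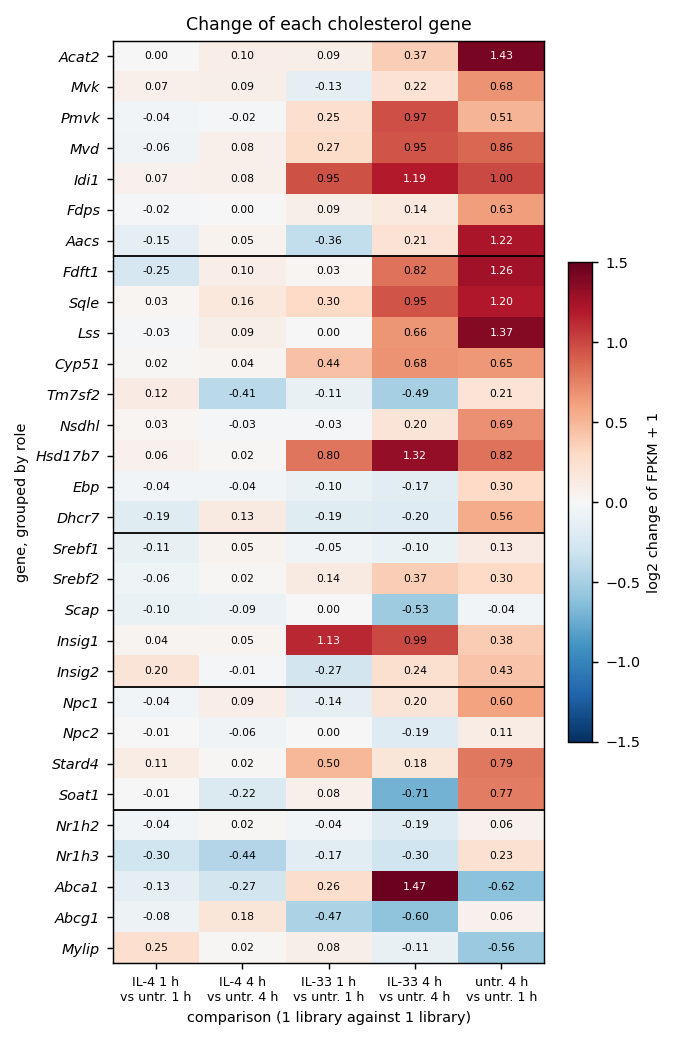
Log2 change of FPKM + 1 for each of the 30 genes (rows, grouped by role) in the 5 comparisons of 1 library against 1 library (columns), with the value printed in each cell and red for higher. The IL-4 columns stay between -0.44 and 0.25, the IL-33 4 h column reaches 1.47 for Abca1, and the untreated column reaches 1.43 for Acat2.

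Over all 30 genes, the 2-fold rule was passed by 5 in untreated cells over time (Acat2, Aacs, Fdft1, Sqle and Lss, beside 0.879% of all genes) and by 3 with IL-33 at 4 h (Idi1, Hsd17b7 and Abca1, beside 4.15%), all higher. By the 1.5-fold rule 15 were higher over time, beside 5.9% of all genes, and 10 were higher with IL-33 at 4 h, beside 8.04%. The 2 lower genes with IL-33 at 4 h, Soat1 and Abcg1, are a share near the 7.31% of all genes. The medians of the log2 change were 0.58 over time and 0.21 with IL-33 at 4 h. Idi1 lay just outside the 2-fold rule over time, with a log2 change of 0.995 at a fold of 2.032. The authors' deposited table of genes they marked as significant, by a test between single libraries, listed Idi1, Hsd17b7 and Insig1 with IL-33 at 1 h, at log2 changes of 0.98, 0.96 and 1.14. For IL-33 at 4 h the authors' deposited table listed Pmvk (1.00), Idi1 (1.21), Hsd17b7 (1.43) and Abca1 (1.74). For IL-4 the authors' deposited table listed Fdft1 (-0.27) and Mylip (0.26) at 1 h and Soat1 (-0.23) and Abca1 (-0.37) at 4 h.

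Other genes of these pathways were read from 5 further lists. Of 5 other sterol synthesis genes, 2 were higher by the 1.5-fold rule with IL-33 at 4 h, beside 8.04% of all genes, and none was lower, beside 7.31%. Sc4mol, the methyl sterol oxidase, stood at 56.8, 51.3 and 61.9 FPKM at 1 h and at 109.9, 114 and 176 at 4 h, and Sc5d, a sterol desaturase, at 39.7, 36.2 and 40.0 and at 38.2, 45.0 and 71.6. Sc4mol thus differed both by time and with IL-33, and Sc5d with IL-33 but not, by the 1.5-fold rule, by time or with IL-4. Among genes of fatty acid synthesis, which SREBP1 is known to drive, none of the 12 that could be compared without regard to IL-33 was past the 1.5-fold rule with IL-33 at 4 h. Me1, the malic enzyme that supplies NADPH, was at 1.57 FPKM there and under 1 FPKM in the other 5 libraries, so it entered only through its high library and is not counted. Over time in untreated cells 4 of the 12 were higher, beside 5.9% of all genes, among them Fasn, the fatty acid synthase, at 8.29 and 15.8 FPKM, but with IL-33 at 4 h Fasn stood at 11.8.

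IL-33 at 4 h split the 7 other uptake genes, with 2 past the 2-fold rule upward, beside 4.15% of all genes, and 2 past the 1.5-fold rule downward, beside 7.31%. Lipa, the lysosomal lipase that frees cholesterol from taken-up lipoprotein, went from 92.8 FPKM in untreated cells to 193 with IL-33, against 78.4 to 86.5 in the other 4 libraries, a log2 change of 1.05. Lrp8, a receptor of the lipoprotein receptor family, stood at 4.76 and 10.7 FPKM (log2 change 1.02). Scarb1, the receptor that takes up cholesteryl ester from high-density lipoprotein, stood at 27.9 and 15.6 FPKM (-0.80). Lrp1, another receptor of that family, stood at 3.35 FPKM in untreated cells of 4 h, 1.58 with IL-4 and 1.48 with IL-33. Its log2 changes, -0.75 with IL-4 and -0.80 with IL-33, both passed the 1.5-fold rule, and it was the 1 uptake gene past it with IL-4. Of 12 oxysterol and LXR genes, 10 had a log2 change below 0 with IL-33 at 4 h, and the list's median was -0.34, beside -0.03 for all genes. By the 1.5-fold rule 1 was lower, Rxrb (-0.59), and 0 were higher, shares near the 7.31% and 8.04% of all genes. Of 9 genes of SREBP processing, which include the proteases Mbtps1 and Mbtps2, none was past either rule in any comparison.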

How the data were processed

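The authors deposited FPKM for 28702 RefSeq transcripts in 4 tables, each pairing 1 cytokine library with the control of the same time, per the file headers. Single-read libraries of total RNA were processed with TopHat 1.4.1, Cuffdiff 1.2.1 and build mm9, per the submitters' processing notes. Trimming and the RefSeq release are not given in the sources used here. A further list holds the authors' deposited log2 fold changes, whose tests compare libraries, not conditions.

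Transcripts were summed per symbol (where a symbol had several loci, that of highest FPKM was kept). The IL-33 tables were scaled apart (untreated columns at 0.945 and 0.947 times those of the IL-4 tables), so levels from them were multiplied by 1.06, and changes were taken within a table. The untreated libraries were compared across the IL-4 tables. Changes are log2((a + 1)/(b + 1)), a scale that understates changes of low genes, for genes with FPKM of at least 1 in 1 of the 2 libraries. No test was run. Reads were estimated from whole-read steps in genes over 2000 bases (60.95% to 64.08% of low values lay within 0.1 of a whole read), with transcript lengths from another annotation. The log2 changes and the 2-fold rule were tried on simulated data, but the read estimates and their intervals were not. Python 3.11.15, pandas 2.3.3 and scipy 1.17.1 were used. Genes past the 1.5-fold rule in any comparison are given in every library. Of the further lists, those past the 2-fold rule were to be named, and a few others were added after their values were seen. The genes and lists were chosen with earlier results of these data known. A few genes of the pathway are not reported here.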

Additional observations from a re-analysis of the deposited data

How the results depend on the processing

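The alternatives were a pseudocount of 0.1, an FPKM minimum of 5 or none, centring on the median of all genes, the highest transcript only, the untreated library of the other time, the control columns of the IL-33 tables and treated columns compared directly. No paired analysis was possible because each group has 1 library, and for the same reason no library could be left out. Of the counts of genes past the 2-fold rule, 77 of 84 stayed the same or within 1.5 times. Many of these were counts of 0 that stayed at 0, so the figure says little about how stable the other counts are. With the untreated library of the other time, the IL-4 1 h count of lower genes went from 0 to 5, the IL-4 4 h count of higher genes from 0 to 6, the IL-33 1 h counts from 1 higher and 0 lower to 0 and 4, and the IL-33 4 h count of higher genes from 3 to 11. That library also holds the difference of time. Centring gave 5 higher genes in place of 3 for IL-33 at 4 h and for IL-33 against IL-4 at 4 h. Single genes were followed only where the main setting called them by the 1.5-fold rule, so a call could be lost but not gained. Genes that another setting would newly call were not counted. Of the values followed, 254 kept the call. They include 44 values with the minimum of 5 and 44 with none, which could not differ, since a minimum does not alter a gene's value. For genes with 1 transcript, the highest-transcript setting could not alter it either. With the untreated library of the other time, 3 changed direction: Idi1 (-0.0471) and Hsd17b7 (-0.0128) with IL-33 at 1 h and Soat1 (0.064) with IL-33 at 4 h. The other 7 lost the call in the same direction: Abcg1 with IL-33 at 4 h (-0.57 and -0.54), Mvk (0.58), Fdps (0.53), Cyp51 (0.55) and Npc1 (0.50) over time, and Cyp51 for IL-33 against IL-4 at 4 h with treated columns compared directly (0.56). The cause was not tested. Nr1h3 and Tm7sf2, the genes with the fewest estimated reads, are the least precise at this depth.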
